A study of Homo sapiens with 9 samples.

Results

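The genes described here are 41 genes of DNA replication and S phase, chosen by name out of 31033 gene names on the array. They encode the replicative helicase and its loading factors, the DNA polymerases, the sliding clamp and its loader, nucleotide synthesis enzymes, regulators of the G1 to S transition and the chromatin assembly factor. All 41 were found in the scanner files, on 56 probes. Expression was measured in DLD1, an established human colorectal cancer cell line, on 9 single-color Agilent arrays. The groups were 3 untreated Control cultures, 3 Lamin A/C Kd cultures and 3 Lamin B2 Kd cultures, and each knockdown (Kd) used 100 nM siRNA against LMNA or LMNB2 for 48 h. No array came from cells given a control siRNA, so transfection and the loss of a lamin cannot be told apart here. The question was how the transcripts of the replication machinery differed between control cells and cells depleted of either lamin.

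DNA replication is prepared in G1, when CDC6 and CDT1 load the MCM2 to MCM7 helicase onto origins. In S phase the kinase CDC7 and the GINS complex switch the helicase on, primase and the polymerases copy both strands, and PCNA, loaded by the RFC complex, holds the polymerases on DNA. Many of these genes are transcribed at the end of G1 under E2F transcription factors, and A-type lamins are known partners of the retinoblastoma protein, which restrains E2F. A transcript that falls in a bulk culture can mean fewer cells in S phase or less RNA per cell, which cannot be told apart on these arrays.

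The promoters of these genes are shown first because the E2F site is what many of them share besides their function. RefSeq promoter windows (GRCh38.p14, 250 bases before to 50 after each start) were present for 35 of the 41 genes. Both strands were searched for the E2F words TTTGGCGC, TTTCCCGC, TTTCGCGC and TTTGCCGC, which can overlap each other. A word was found for 19 of the 35 genes (54.3%), against 1090 of 27305 genes in the whole table (3.99%). Of the genes called as lower in Lamin A/C Kd (adjusted p under 0.05), MCM10, RRM1 and CHAF1B hold no word and MCM4 has no window. Sequences are given below for the other 7, which hold a word, and for E2F1 as a member of the factor family itself. They run 5′ to 3′ on the strand of the gene, from 90 bases before to 25 after the start (for MCM6 from 160 to 61 bases before it), with the E2F words in capitals.
MCM6, chr2:135876504-135876603, minus strand: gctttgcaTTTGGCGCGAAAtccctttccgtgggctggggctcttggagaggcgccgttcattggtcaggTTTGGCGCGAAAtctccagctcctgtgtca
CDC7, chr1:91501022-91501136, plus strand: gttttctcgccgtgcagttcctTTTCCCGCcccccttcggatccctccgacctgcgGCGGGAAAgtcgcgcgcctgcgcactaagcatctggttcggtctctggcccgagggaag
CDC6, chr17:40287789-40287903, plus strand: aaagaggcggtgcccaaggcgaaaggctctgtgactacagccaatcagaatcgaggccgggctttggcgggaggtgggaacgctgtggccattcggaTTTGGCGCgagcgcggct
GINS2, chr16:85688930-85689044, minus strand: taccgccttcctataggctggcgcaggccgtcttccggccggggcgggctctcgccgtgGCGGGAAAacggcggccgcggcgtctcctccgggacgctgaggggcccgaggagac
TYMS, chr18:657563-657677, plus strand: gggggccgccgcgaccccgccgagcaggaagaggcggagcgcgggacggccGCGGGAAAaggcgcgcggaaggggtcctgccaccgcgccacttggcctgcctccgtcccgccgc
PCNA, chr20:5126598-5126712, minus strand: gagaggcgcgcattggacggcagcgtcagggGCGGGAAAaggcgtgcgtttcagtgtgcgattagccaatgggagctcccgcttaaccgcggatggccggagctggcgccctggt
POLE2, chr14:49688190-49688304, minus strand: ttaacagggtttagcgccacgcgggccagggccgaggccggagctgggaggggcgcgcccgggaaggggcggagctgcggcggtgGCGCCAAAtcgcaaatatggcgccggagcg
E2F1, chr20:33686361-33686475, minus strand: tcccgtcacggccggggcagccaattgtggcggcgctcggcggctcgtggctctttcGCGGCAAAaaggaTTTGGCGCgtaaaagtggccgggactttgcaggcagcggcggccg

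In the MCM6 stretch, 4 words lie in 2 places, because TTTGGCGC on one strand overlaps TTTCGCGC on the other in each. CDC7 and E2F1 hold 2 words each. The matches are matches of letters and were not measured as binding.

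Among the other words searched, the CHR word TTTGAA, typical of genes expressed in G2 and mitosis, was found for 1 of the 35 genes (2.86%), against 18.2% of all genes in the table. The CCAAT box was found for 57.1% of the 35 genes and 39.7% of all genes, and the GC box GGGCGG for 28 of the 35 genes and for 48.3% of all genes. A list of 36 G2 and mitosis genes, 30 of them with a window, differed, with an E2F word for 3 genes and the CHR word for 22 (73.3%). The 19 genes with an E2F word had a median log2 change of -0.48 in Lamin A/C Kd, of which 7 were called, and the 16 without had a median of -0.41, of which 3 were called. For Lamin B2 Kd the medians were -0.33 with a word and -0.29 without. There the calls ran the other way, with 1 of the 19 genes called and 2 of the 16. Among all genes tested, 5.56% were called as lower with Lamin A/C depleted and 4.28% with Lamin B2 depleted. Whether calls depend on the word was not tested. Changes in Lamin A/C Kd ran from -1.22 to 0.30 among the genes with a word and from -0.61 to 0.27 among those without, which include RRM1, MCM10, CHAF1A and CHAF1B.

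**Figure D1:**
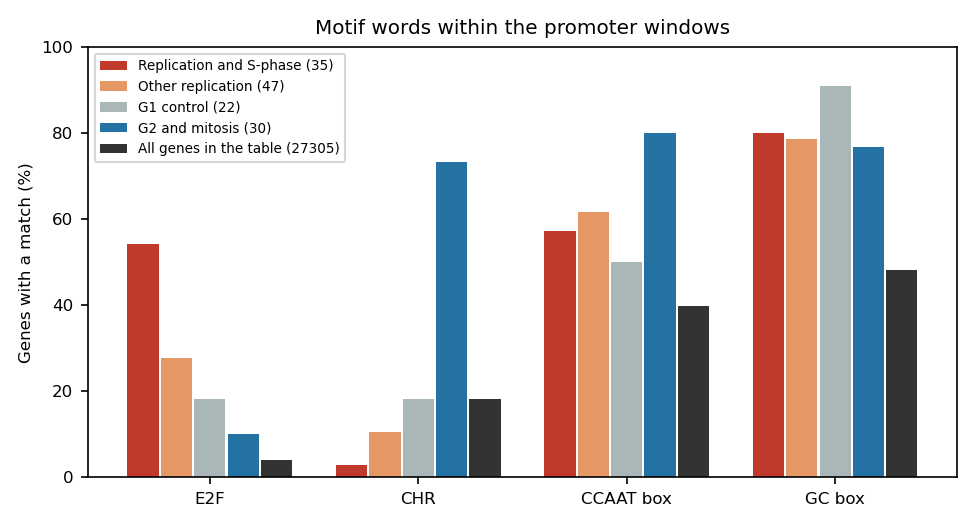
Share of genes (percent, vertical axis) whose promoter window holds each motif word on either strand, for 5 sets of genes with the number of genes having a window in parentheses. The E2F bar is at 54.3% for the replication and S-phase genes and at 3.99% for all genes, while the CHR bar is highest, at 73.3%, for the G2 and mitosis genes.

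The arrays were first checked for the knockdowns, the cell type and libraries standing apart. LMNA was at 8.79, 8.79 and 8.91 in the controls and at 4.84, 5.14 and 5.03 in Lamin A/C Kd, a log2 fall by 3.83 (limma, adjusted p = 0.000299). LMNB2 was at 5.44, 5.51 and 5.74 in the controls and at 3.1, 3.48 and 3.15 in Lamin B2 Kd, where it fell by 2.32 (adjusted p = 0.000542). Of 10 epithelial marker genes, 9, among them EPCAM, KRT8 and KRT18, were well above background on all 9 arrays, and CEACAM5 was so on 1 array. Of 10 blood and stroma markers, CD3E, CD14, PECAM1, VWF and ACTA2 were so on all 9 arrays and DCN on 8, while PTPRC, COL1A1 and COL1A2 were so on 2 and COL3A1 on 1. Lamin B2 Kd replicate 3 lay on a slide of its own, and its processed signal equalled the background-subtracted signal at 87.5% of spots, within 0.5%, against 3.81 to 15.7% on the other arrays. Its correlation across genes with replicates 1 and 2 of its group was 0.977 and 0.975, while replicates of the same group otherwise correlated at 0.993 to 0.996. The counts, the list medians and the genes whose value rests on it are therefore also given without it. That array enters the shared estimate of spread, so it bears on Lamin A/C Kd calls too.

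The level of a gene is given as the log2 of its processed signal minus the log2 median signal of the array, on its brightest probe. On this scale a difference of 1 is a 2-fold change. Groups were compared with limma over all 9 arrays, and a gene was called where the p value adjusted over all genes tested (Benjamini-Hochberg) was under 0.05. The brightest probe of every one of the 41 genes was well above background on all 9 arrays, so no member was lost to the detection filter.

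Replication transcripts were lower in Lamin A/C Kd. Relative to the mean of the controls, the median over the 41 genes was -0.46, -0.43 and -0.39 in Lamin A/C Kd replicates 1, 2 and 3, and between -0.03 and 0.06 in the controls. Of the 41 genes, 38 had a change below 0, where 55.5% of all genes tested did, and 34 had all 3 Lamin A/C Kd arrays below all 3 controls, where 25.2% of all genes tested did so. Called as lower were 11 of the 41 genes, where 5.56% of all genes tested were. None of the 41 was called as higher, where 3.01% of all genes were. At an unadjusted p under 0.05, 26 were lower, where 14.6% of all genes were. Higher at that threshold was 1 gene, where 1834 of 21809 genes tested were. The changes were small: with the methods' threshold of a 2-fold change and an unadjusted p under 0.05, only MCM6 was called as lower, where 1.28% of all genes were. The median log2 change of the 41 genes was -0.41, beside -0.04 over all genes tested.

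In Lamin B2 Kd few of these genes were called, a share that may be read against that of all genes. The array medians were -0.17, -0.25 and -0.50 in replicates 1, 2 and 3, and over all genes tested the medians of these arrays were -0.06, -0.08 and -0.32. Of the 41 genes, 40 had a change below 0, where 66.7% of all genes tested did, and 25 had all 3 arrays below all 3 controls, where 27.3% of all genes tested did so. Called as lower were 3 genes, CHAF1A, CHAF1B and CDC7, where 4.28% of all genes tested were, and none was called as higher, where 0.503% were. At an unadjusted p under 0.05, 17 were lower, where 20.0% of all genes were, and 0 were higher, where 967 of 22070 were. None passed the methods' threshold as lower, where 1.21% did so. The median log2 change was -0.28, and that of all genes tested was -0.14, which leaves -0.14 between them. With a 75th percentile shift these medians were -0.09 and 0.05. Without Lamin B2 Kd replicate 3, 4 genes were called as lower, where 4.42% of all genes were, namely the same 3 and LIG1, and the median was -0.16 beside -0.06 over all genes.

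No gene of the 41 had all 3 Lamin B2 Kd arrays above the controls, where 5.62% of all genes did, and 2 had all 3 Lamin A/C Kd arrays above them, where 15.6% did. The 2 were CCNE1 and RPA2. Both comparisons share the 3 control arrays.

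**Figure D2:**
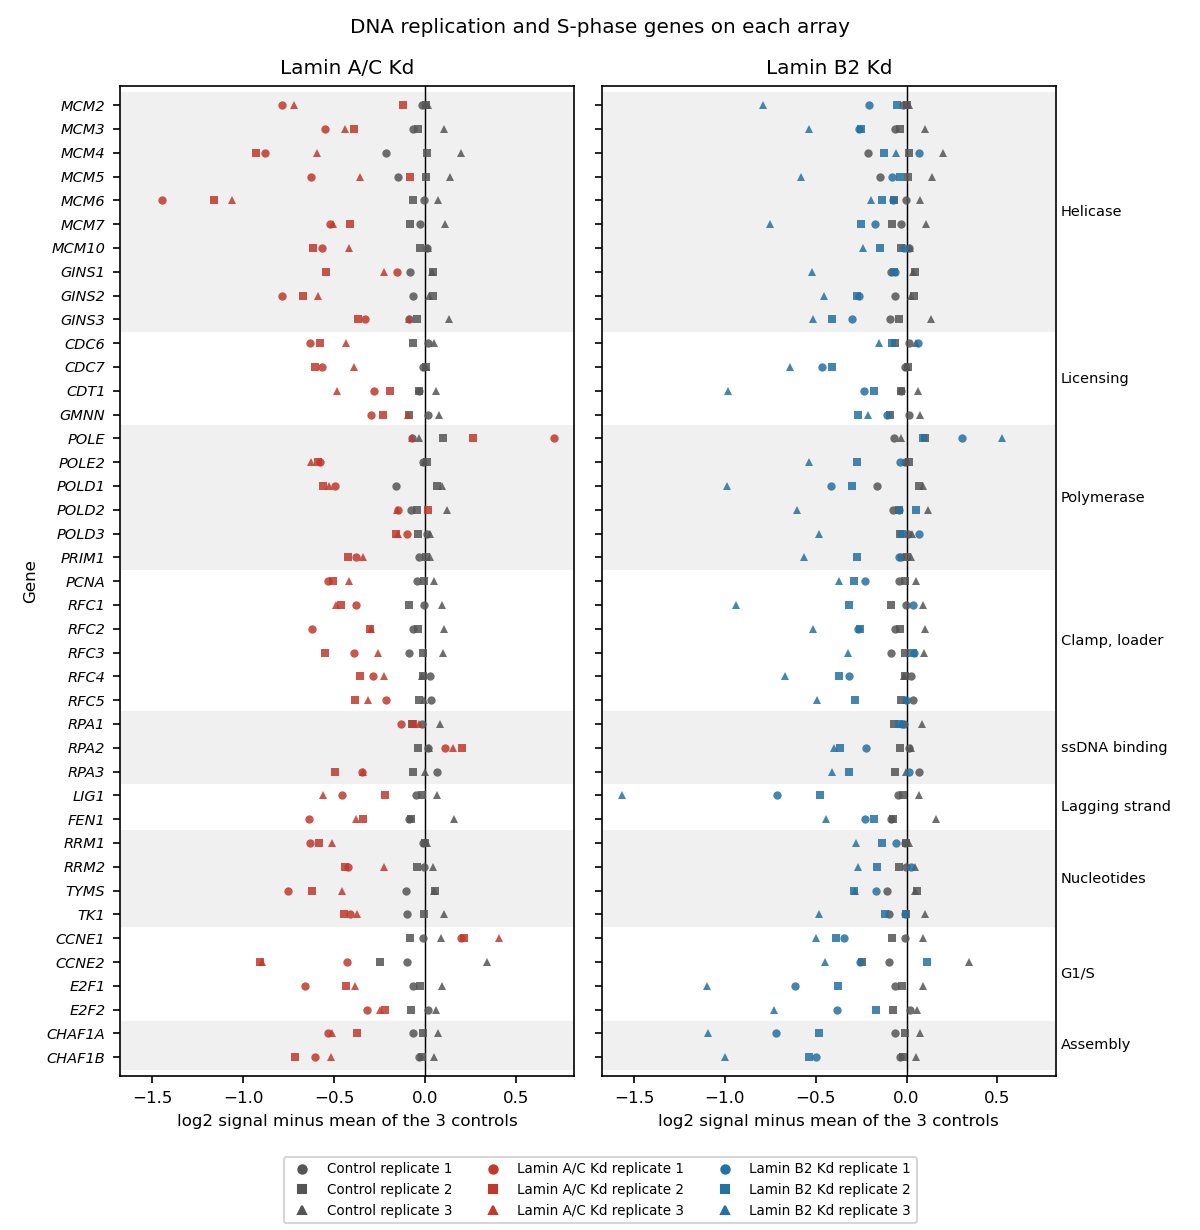
Log2 signal of each of the 41 genes (rows, grouped by role) on each array minus the mean of the 3 controls, for Lamin A/C Kd on the left and Lamin B2 Kd on the right, with the controls in grey in both. Most Lamin A/C Kd points lie below the controls, with MCM6 furthest, and in Lamin B2 Kd the triangles of replicate 3 lie lowest for most genes.

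**Figure D3:**
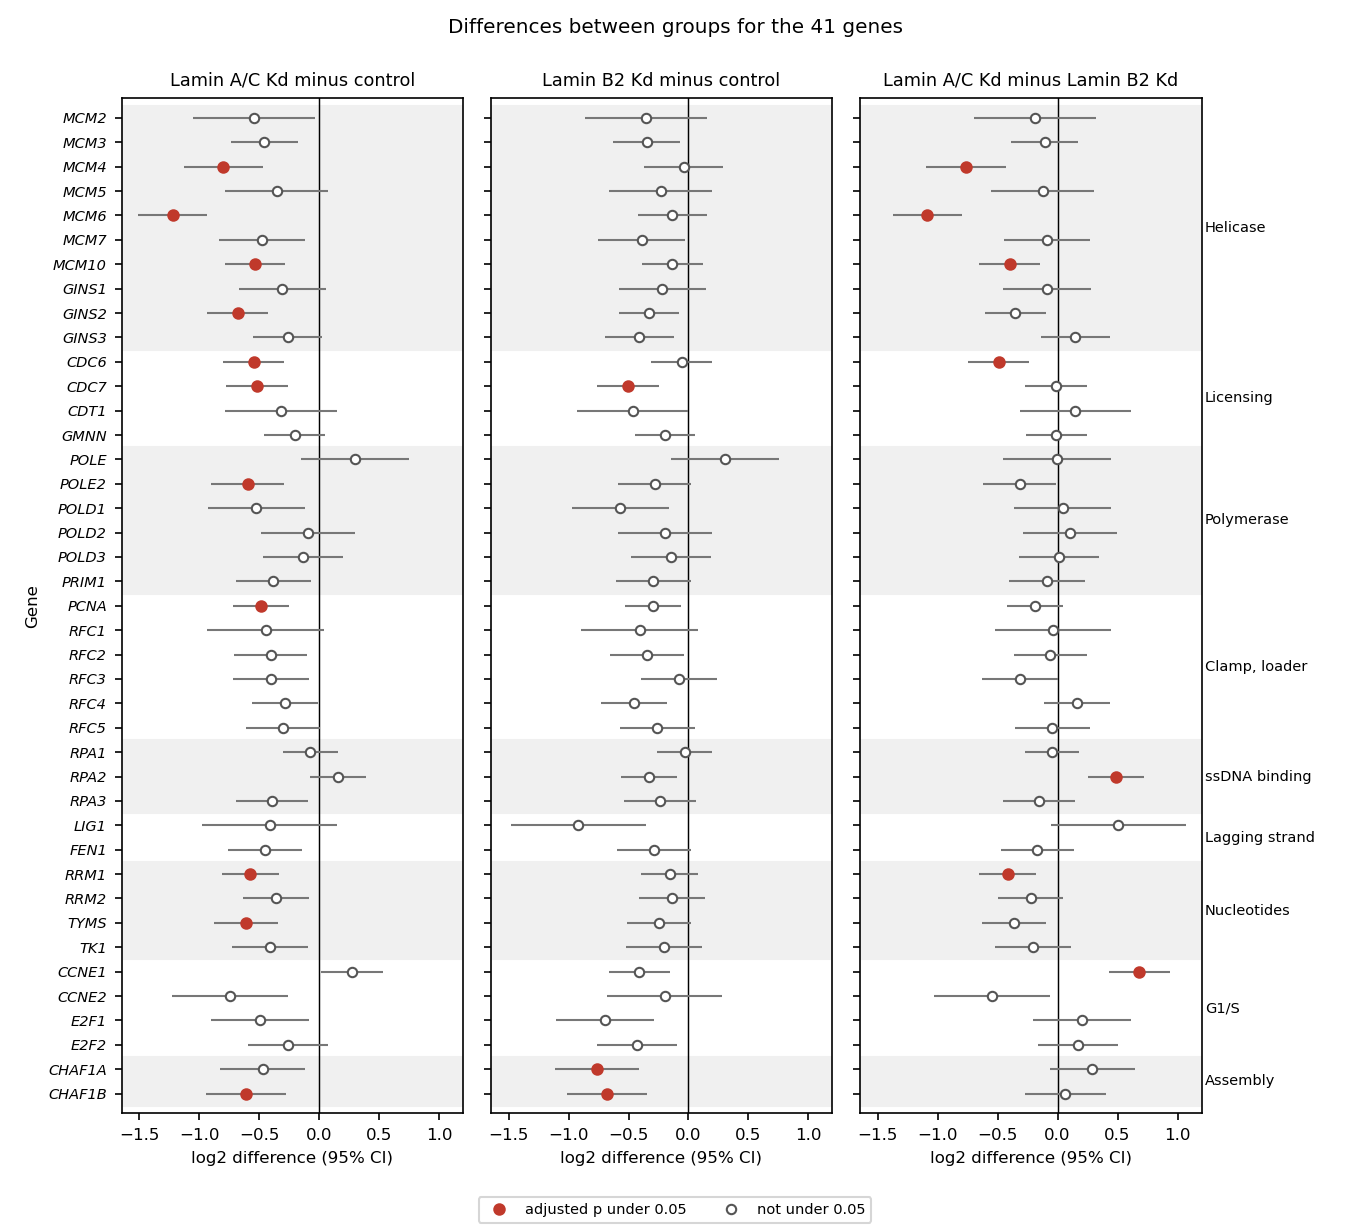
Log2 difference between groups with its 95% confidence interval from the limma fit for each of the 41 genes (rows, grouped by role), with filled points where the adjusted p was under 0.05. The filled points number 11 in Lamin A/C Kd, 3 in Lamin B2 Kd and 7 between the knockdowns.

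The replicative helicase held the largest change. The minichromosome maintenance proteins MCM2 to MCM7 form the ring that unwinds DNA, MCM10 helps to activate it, and GINS1, GINS2 and GINS3 belong to its GINS cofactor. All 10 of these genes had a change below 0 in Lamin A/C Kd, and 4 were called, namely MCM6, MCM4, GINS2 and MCM10.

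MCM6 was at 8.62, 8.55 and 8.69 in the controls, at 7.18, 7.46 and 7.56 in Lamin A/C Kd and at 8.55, 8.49 and 8.42 in Lamin B2 Kd. The Lamin A/C Kd arrays stood apart from the other 6, and the Lamin B2 Kd arrays lay just below the lowest control. In Lamin A/C Kd, MCM6 fell by 1.22 (standard error 0.13, adjusted p = 0.00163), to 42.9% of the control signal, and its change in Lamin B2 Kd was -0.14 (adjusted p = 0.501). MCM4 was at 5.74, 5.97 and 6.15 in the controls, 5.08, 5.02 and 5.36 in Lamin A/C Kd and 6.02, 5.83 and 5.90 in Lamin B2 Kd. For MCM4 only the Lamin A/C Kd arrays lay below the controls. Upon Lamin A/C Kd MCM4 fell by 0.80 (standard error 0.15, adjusted p = 0.0133), to 57.4% of the control signal, with -0.04 in Lamin B2 Kd (adjusted p = 0.874).

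GINS2 was at 7.21, 7.32 and 7.30 in the controls, 6.49, 6.60 and 6.68 in Lamin A/C Kd and 7.01, 7.0 and 6.82 in Lamin B2 Kd. Both knockdowns lay below the controls, with Lamin A/C Kd lowest. Upon Lamin A/C Kd GINS2 fell by 0.68 (standard error 0.11, adjusted p = 0.00893), and in Lamin B2 Kd the change was -0.33 (adjusted p = 0.124). MCM10 was at 5.51, 5.47 and 5.52 in the controls, 4.93, 4.88 and 5.08 in Lamin A/C Kd and 5.48, 5.35 and 5.26 in Lamin B2 Kd. The Lamin A/C Kd arrays lay below all others, while Lamin B2 Kd overlapped the controls. In Lamin A/C Kd, MCM10 fell by 0.54 (standard error 0.11, adjusted p = 0.0211), and a further MCM10 probe gave -0.64.

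MCM2, a helicase subunit used as a proliferation marker, was less even. It was at 7.89, 7.91 and 7.93 in the controls, 7.12, 7.79 and 7.19 in Lamin A/C Kd and 7.70, 7.86 and 7.12 in Lamin B2 Kd. Lamin A/C Kd replicate 2 and Lamin B2 Kd replicate 2 lay close to the controls. The changes were -0.54 (standard error 0.23, adjusted p = 0.188) and -0.35 (adjusted p = 0.348). The other 5 helicase genes, MCM3, MCM5, MCM7, GINS1 and GINS3, had changes from -0.48 to -0.26 in Lamin A/C Kd and from -0.41 to -0.22 in Lamin B2 Kd, and none was called.

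Of the licensing genes, CDC6 and CDC7 were called in Lamin A/C Kd. CDC6, the ATPase that loads the helicase, was at 7.11, 7.03 and 7.15 in the controls, 6.47, 6.52 and 6.66 in Lamin A/C Kd and 7.16, 7.02 and 6.95 in Lamin B2 Kd. In Lamin A/C Kd, it fell by 0.55 (standard error 0.11, adjusted p = 0.0202), and Lamin B2 Kd overlapped the controls with a change of -0.06 (adjusted p = 0.761). CDC7, the kinase that fires origins, showed another pattern. It was at 5.43, 5.45 and 5.45 in the controls, 4.88, 4.84 and 5.06 in Lamin A/C Kd and 4.98, 5.04 and 4.80 in Lamin B2 Kd. Both knockdowns lay below the controls and overlapped each other. CDC7 fell by 0.52 with Lamin A/C depleted (limma, adjusted p = 0.0263) and by 0.51 with Lamin B2 depleted (adjusted p = 0.0434, standard error 0.11 in both), and the difference between the knockdowns was -0.01 (95% interval -0.27 to 0.24). CDT1, the partner of CDC6 in loading, had changes of -0.32 and -0.47 (-0.21 in Lamin B2 Kd without replicate 3, which turns the order of the knockdowns), and GMNN, the inhibitor of CDT1, -0.21 and -0.20, and neither was called.

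Among the polymerase genes, POLE2, the second subunit of polymerase epsilon, was called in Lamin A/C Kd. It was at 3.65, 3.67 and 3.66 in the controls, 3.08, 3.07 and 3.03 in Lamin A/C Kd and 3.62, 3.39 and 3.12 in Lamin B2 Kd. Upon Lamin A/C Kd POLE2 fell by 0.60 (standard error 0.14, adjusted p = 0.029), and the change in Lamin B2 Kd was -0.28 (adjusted p = 0.234). POLE, the catalytic subunit of the same polymerase, was at 0.41, 0.58 and 0.45 in the controls, 1.19, 0.74 and 0.41 in Lamin A/C Kd and 0.78, 0.57 and 1.0 in Lamin B2 Kd. These values overlapped, and the changes of 0.30 and 0.31 were not called (adjusted p = 0.431 and 0.353). The direction of POLE depends on the probe, since its other probe gave -0.65 and -0.32. The other polymerase genes, POLD1, POLD2 and POLD3 of polymerase delta and the primase PRIM1, had changes from -0.53 to -0.10 in Lamin A/C Kd and from -0.57 to -0.15 in Lamin B2 Kd. POLD1 was lowest in both.

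PCNA, the sliding clamp, was at 8.84, 8.88 and 8.94 in the controls, 8.35, 8.38 and 8.47 in Lamin A/C Kd and 8.66, 8.59 and 8.51 in Lamin B2 Kd. The groups did not overlap, and Lamin A/C Kd was lowest and the controls highest. Upon Lamin A/C Kd PCNA fell by 0.48 (standard error 0.10, adjusted p = 0.0227), and its change in Lamin B2 Kd was -0.30 (adjusted p = 0.129), while the difference between the knockdowns did not pass the test (-0.19, adjusted p = 0.265). RFC4, of the clamp loader, was at 7.60, 7.56 and 7.56 in the controls, 7.29, 7.21 and 7.35 in Lamin A/C Kd and 7.26, 7.20 and 6.91 in Lamin B2 Kd. Its changes were -0.29 (adjusted p = 0.194) and -0.45 (adjusted p = 0.069). The other 4 loader genes, RFC1, RFC2, RFC3 and RFC5, had changes from -0.45 to -0.30 in Lamin A/C Kd and from -0.41 to -0.08 in Lamin B2 Kd, and none was called.

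RPA, the trimer that coats single-stranded DNA, was not uniform. RPA2 was at 7.01, 6.96 and 7.02 in the controls, 7.10, 7.20 and 7.15 in Lamin A/C Kd and 6.77, 6.63 and 6.60 in Lamin B2 Kd. The Lamin A/C Kd arrays lay above the controls and the Lamin B2 Kd arrays below them. Neither change passed the test on its own (0.16, adjusted p = 0.433, and -0.33, adjusted p = 0.102). RPA1 had changes of -0.08 and -0.03 and RPA3 of -0.39 and -0.24.

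On the lagging strand, FEN1, the flap nuclease, and LIG1, the ligase that joins Okazaki fragments, were not called in either knockdown. LIG1 was at 7.57, 7.60 and 7.68 in the controls, 7.16, 7.40 and 7.06 in Lamin A/C Kd and 6.90, 7.14 and 6.05 in Lamin B2 Kd. All 6 knockdown arrays lay below the controls, and Lamin B2 Kd replicate 3 was lowest. LIG1 had a change of -0.92 in Lamin B2 Kd (adjusted p = 0.069), and without that array it was -0.60 and was called (adjusted p = 0.0424). LIG1 was picked after its values were seen. FEN1 had changes of -0.45 (adjusted p = 0.0766) and -0.28.

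The 4 nucleotide supply genes had changes below 0 in Lamin A/C Kd, and RRM1 and TYMS were called. RRM1 is the large subunit of ribonucleotide reductase, which makes deoxynucleotides. It was at 9.18, 9.19 and 9.21 in the controls, 8.56, 8.61 and 8.68 in Lamin A/C Kd and 9.14, 9.06 and 8.92 in Lamin B2 Kd. Upon Lamin A/C Kd RRM1 fell by 0.58 (standard error 0.11, adjusted p = 0.014), and the change in Lamin B2 Kd was -0.16 (adjusted p = 0.368). TYMS, thymidylate synthase, was at 8.91, 9.07 and 9.06 in the controls, 8.26, 8.39 and 8.55 in Lamin A/C Kd and 8.84, 8.72 and 8.73 in Lamin B2 Kd. In Lamin A/C Kd, it fell by 0.61 (standard error 0.12, adjusted p = 0.0164), with -0.25 in Lamin B2 Kd (adjusted p = 0.234). RRM2, the small and cell cycle regulated subunit of the reductase, was at 6.5, 6.46 and 6.55 in the controls, 6.08, 6.06 and 6.28 in Lamin A/C Kd and 6.53, 6.34 and 6.23 in Lamin B2 Kd. Its changes were -0.36 (adjusted p = 0.105) and -0.14 (adjusted p = 0.477), and its other probe gave 0.30 and 0.46, in the opposite direction. TK1, thymidine kinase, had changes of -0.41 and -0.20.

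The regulators of the G1 to S transition split. CCNE1, cyclin E1, which drives CDK2 into S phase, was at 7.73, 7.66 and 7.83 in the controls, 7.94, 7.96 and 8.15 in Lamin A/C Kd and 7.40, 7.36 and 7.24 in Lamin B2 Kd. The 3 groups did not overlap, with Lamin A/C Kd highest and Lamin B2 Kd lowest. Neither change passed the test on its own (0.27, adjusted p = 0.189, and -0.41, adjusted p = 0.0748). Its paralog CCNE2, cyclin E2, had changes of -0.75 (adjusted p = 0.0658) and -0.20. E2F1, an activating E2F factor, was at 6.14, 6.18 and 6.30 in the controls, 5.55, 5.77 and 5.82 in Lamin A/C Kd and 5.59, 5.83 and 5.11 in Lamin B2 Kd. All knockdown arrays lay below the controls, with changes of -0.49 (standard error 0.18, adjusted p = 0.139) and -0.70 (adjusted p = 0.0618). E2F2, another activating E2F, had changes of -0.26 and -0.43.

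The chromatin assembly factor places histones on new DNA behind the clamp. The 2 genes listed for it, CHAF1A and CHAF1B, were both called in Lamin B2 Kd. In no other role were all listed members called there, but the roles held 2 to 10 genes. The other role of 2 genes, the lagging strand, held the largest change in Lamin B2 Kd, that of LIG1 (-0.92, not called). CHAF1B was at 7.22, 7.24 and 7.31 in the controls, 6.65, 6.54 and 6.74 in Lamin A/C Kd and 6.76, 6.72 and 6.26 in Lamin B2 Kd. CHAF1A was at 6.91, 6.96 and 7.04 in the controls, 6.44, 6.60 and 6.46 in Lamin A/C Kd and 6.25, 6.49 and 5.88 in Lamin B2 Kd. For both genes all 6 knockdown arrays lay below all controls, and Lamin B2 Kd replicate 3 was lowest. CHAF1B fell by 0.61 with Lamin A/C depleted (limma, adjusted p = 0.037) and by 0.68 with Lamin B2 depleted (adjusted p = 0.0399, standard error 0.15 in both). Upon Lamin B2 Kd CHAF1A fell by 0.76 (standard error 0.16, adjusted p = 0.0336), and its change of -0.47 in Lamin A/C Kd did not pass the test (adjusted p = 0.104). Without Lamin B2 Kd replicate 3 the changes in Lamin B2 Kd were -0.52 for CHAF1B, -0.60 for CHAF1A and -0.44 for CDC7, and all 3 were still called. With each of the 9 arrays left out in turn, however, the call of CHAF1B held 3 times, and those of CHAF1A and CDC7 2 times.

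**Figure D4:**
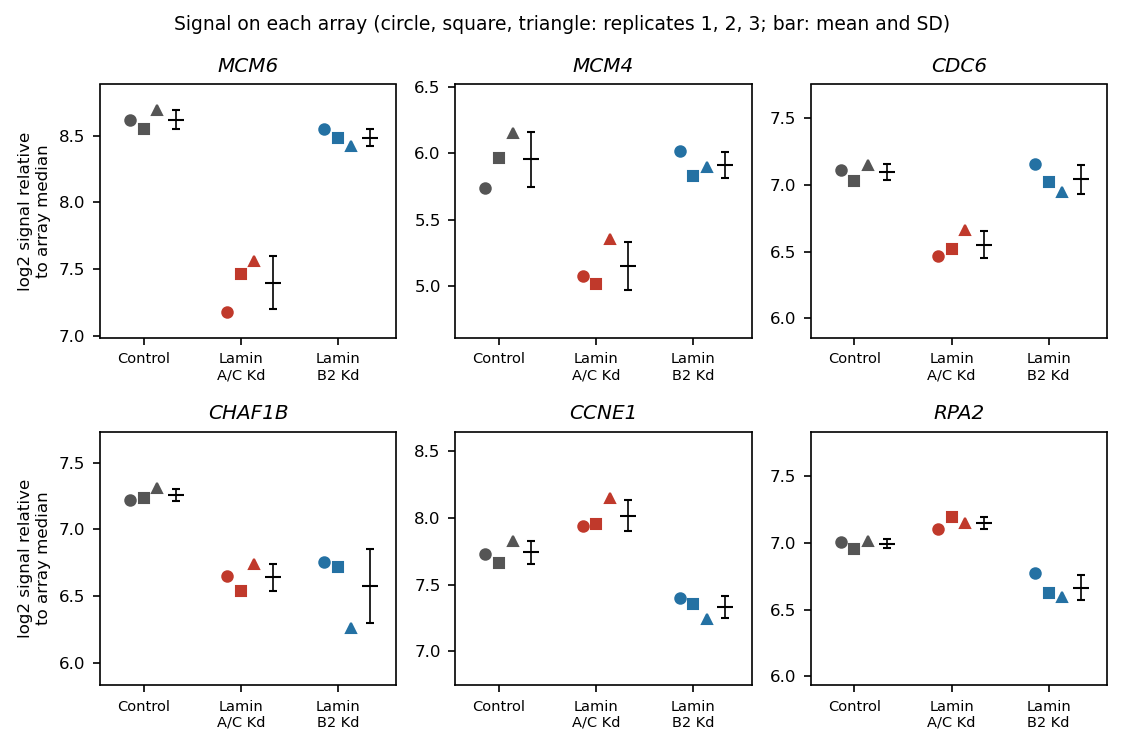
Log2 signal relative to the array median on each array for 6 of the genes, with circles, squares and triangles for replicates 1, 2 and 3 and a bar for the mean and SD of each group (n = 3), each panel spanning the same log2 range. MCM6, MCM4 and CDC6 are lowest in Lamin A/C Kd alone, CHAF1B is low in both knockdowns, and CCNE1 and RPA2 are highest in Lamin A/C Kd and lowest in Lamin B2 Kd.

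Whether the knockdowns differed was tested directly between their arrays. Lower in Lamin A/C Kd than in Lamin B2 Kd were 5 of the 41 genes, where 4.47% of all genes tested were, and 2 were higher, where 11.1% were. With the methods' threshold, 1 gene was lower, where 1.40% of all genes were. The 5 were MCM6 (difference -1.09, adjusted p = 0.00106), MCM4 (-0.76, adjusted p = 0.00921), CDC6 (-0.49, adjusted p = 0.0194), RRM1 (-0.42, adjusted p = 0.0296) and MCM10 (-0.40, adjusted p = 0.0413). The 2 higher genes were CCNE1 (0.68, adjusted p = 0.0051) and RPA2 (0.49, adjusted p = 0.0143). These differences have standard errors of 0.10 to 0.15. For MCM6, MCM4 and CCNE1 the difference was called with any single array left out. The difference of CHAF1B was 0.06 (95% interval -0.27 to 0.40) and that of CHAF1A was 0.29 (95% interval -0.06 to 0.64).

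How many of these genes were called depended on single arrays. The 11 called in Lamin A/C Kd became 27 without Lamin B2 Kd replicate 3, the array on its own slide, and 27 with the slide as a block, while the calls over all genes went from 1869 to 4448 and 4470. Without Control replicate 1 there were 3, and without Control replicate 2 or 3 there were 2. Leaving out Lamin A/C Kd replicate 1 or 2 also left 2, and with any of these 5 arrays left out 554 to 644 genes were called in all. MCM6 and GINS2 were called under each of these. MCM4 was called with 5 of the 9 arrays left out in turn, and each of the other 8 genes with 3 or 4. The 3 called in Lamin B2 Kd became 0 without any single control or Lamin A/C Kd array, 1 without Lamin B2 Kd replicate 1 and 5 without Lamin B2 Kd replicate 2, when the calls over all genes went from 1056 to at most 492, to 919 and to 1541. The 7 called between the knockdowns became 4 or 3 when Lamin A/C Kd replicate 1 or 2 was left out, 4 without Lamin B2 Kd replicate 1 and 11 without Lamin B2 Kd replicate 3, beside 2025, 1888, 3273 and 4196 calls over all genes in place of 3392. The difference of RPA2 was called with 8 of the 9 arrays left out, that of CDC6 with 6, and those of MCM10 and RRM1 with 1.

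The size of many Lamin B2 Kd changes rested on replicate 3. Without it, the change of 23 of the 41 genes moved by over 1.5 times or turned, and none of the 23 but LIG1 was called in Lamin B2 Kd either way. Those that turned were RFC3 (from -0.08 to 0.04), POLD3 (from -0.15 to 0.02) and POLD2 (from -0.20 to 0.00263). Among the helicase and licensing genes, without it, the changes were -0.13 for MCM2, -0.06 for MCM5, -0.21 for MCM7, -0.08 for MCM10, -0.07 for GINS1 and -0.01 for CDC6. Among the polymerase, clamp loader and RPA genes they were 0.20 for POLE, -0.15 for POLE2, -0.36 for POLD1, -0.16 for PRIM1, -0.14 for RFC1, -0.14 for RFC5 and -0.15 for RPA3. The nucleotide supply and G1 to S genes concerned were RRM1 (-0.10), RRM2 (-0.07), TK1 (-0.06), CCNE2 (-0.07) and E2F2 (-0.28).

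For 12 of the 41 genes several probes were on the array. The direction of change was the same on all tested probes in 9 of the 12 upon Lamin A/C Kd and 7 of the 12 upon Lamin B2 Kd, and no probes of a gene differed by more than 1 in their log2 change. The exceptions in Lamin A/C Kd were POLE, RRM2 and RFC3, whose dimmer probe gave 0.55 against -0.40 on the brightest. E2F2 and RPA1 joined these 3 in Lamin B2 Kd. These genes, besides those covered by the naming rule, are named after their values were seen.

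Replication genes outside the 41 were read from a further list. Of 57 further genes (origin recognition, firing, fork protection, topoisomerases, histone factors), 53 were tested in Lamin A/C Kd. Of the 53, 10 fell and 1 rose, where 5.56% and 3.01% of all genes tested did. Their median was -0.37 beside -0.04 over all genes. The gene that rose was ASF1A, a histone chaperone (0.54, adjusted p = 0.0328). Large changes were those of TOP1, the topoisomerase that relaxes DNA ahead of the fork (-1.39, adjusted p = 0.00713), TIMELESS (-1.10, adjusted p = 0.00237) and its partner TIPIN (-0.73, adjusted p = 0.00906), which stabilize forks, and the helicase cofactor CDC45 (-0.83, adjusted p = 0.013). In Lamin B2 Kd, 2 of 54 fell, NASP, a histone chaperone (-0.59, adjusted p = 0.0338), and TIMELESS (-0.55, adjusted p = 0.044), where 4.28% of all genes tested fell, and the median was -0.24 beside -0.14 over all genes. Without replicate 3 of that group the median was -0.11 beside -0.06. NASP was called with 2 of the 9 arrays left out in turn and TIMELESS with 1. TIMELESS was lower in Lamin A/C Kd than in Lamin B2 Kd (-0.55, adjusted p = 0.0184), a call made with 6 of the 9 arrays left out. The Lamin A/C Kd calls of TOP1 and TIMELESS were made with any single array left out. That of TIPIN was made with 8 of the 9 left out, and that of CDC45 with 4.

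Of 27 G1 control genes tested in Lamin A/C Kd, 6 fell and 2 rose, where 5.56% and 3.01% of all genes tested did. Their median was -0.31 beside -0.04 over all genes. The genes that rose were TFDP2, a dimer partner of E2F factors (0.48, adjusted p = 0.0447), and the repressor E2F6 (0.45, adjusted p = 0.0484), and the 3 genes that rose in these lists were picked after their values were seen. The falls included CDK2, the partner kinase of cyclin E (-1.44, adjusted p = 0.00313), the repressor E2F8 (-1.02, adjusted p = 0.00227), the pocket protein RBL1 (-0.83, adjusted p = 0.0121), CDKN2C (-0.54, adjusted p = 0.0434) and E2F4 (-0.53, adjusted p = 0.0304). CDK2 was also called in Lamin B2 Kd (-0.74, adjusted p = 0.0473), as the only 1 of 27, where 4.28% of all genes fell, and the median was -0.14, the same as over all genes. Without replicate 3 none of the 27 was called by limma and the median was -0.08 beside -0.06. By unadjusted p under 0.05, 6 were then lower and 3 higher, where 3515 and 1127 of 22211 genes tested were. The Lamin B2 Kd call of CDK2 was made with 1 of the 9 arrays left out in turn. In Lamin A/C Kd the calls of CDK2 and E2F8 were made with any single array left out. That of RBL1 was made with 6 of the 9 left out, that of E2F4 with 3 and that of CDKN2C with 2.

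The third list held G2 and mitosis genes. All 36 had a change below 0 in Lamin A/C Kd, where 55.5% of all genes tested did. Of the 36, 14 fell, where 5.56% of all genes did, and the median was -0.49 beside -0.04 over all genes. HMMR (-1.44, adjusted p = 0.000641), KIF4A (-0.87, adjusted p = 0.00696), AURKA (-0.74, adjusted p = 0.00704), CENPE (-0.71, adjusted p = 0.0163) and DLGAP5 (-0.63, adjusted p = 0.015), which act on the mitotic spindle, had the largest changes. For Lamin B2 Kd 1 of 36 fell, the kinesin KIF2C (-1.06, adjusted p = 0.00591), where 4.28% of all genes fell, and the median was -0.24 beside -0.14 over all genes. Without replicate 3 these medians were -0.16 and -0.06. KIF2C was called with any single array left out. So were HMMR, KIF4A and AURKA in Lamin A/C Kd, while CENPE and DLGAP5 were called there with 4 of the 9 left out. The part of cell cycle distribution in these values was not tested.

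**Figure D5:**
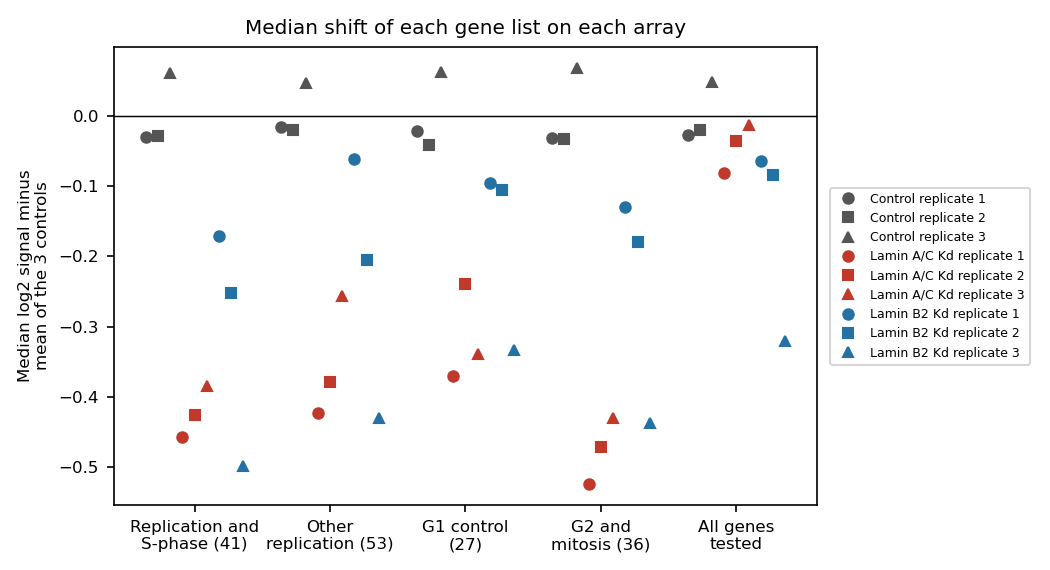
Median over each gene list (number of genes in parentheses) of the log2 signal on each array minus the mean of the 3 controls. The Lamin A/C Kd arrays lie between -0.46 and -0.39 for the replication and S-phase genes and near 0 for all genes tested, while Lamin B2 Kd replicate 3 is also low, at -0.32, for all genes tested.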

How the data were processed

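The authors deposited the Agilent Feature Extraction output of each array (version 10.7.3.1 in the file headers, 10.5 in the submitters' processing notes), with background-subtracted intensities, and their own normalized values, a log2 signal per probe on the 50th percentile shift, used as an alternative. Here log2 of each intensity was taken and the array's 50th percentile subtracted. Spots of a probe were averaged without outlier spots, and no spot was saturated. Probes were tested where at least 0.5 of their spots were well above background on all 3 arrays of a group compared, and the brightest probe gave a gene's value. All 9 arrays entered a linear model in limma 3.58.1 (R 4.3.3), with Benjamini-Hochberg adjustment over all genes tested. Well above background were 65.6 to 74.1% of spots. Precision is limited by how many arrays there were. The methods describe the arrays as independent biological replicates. The members, lists and words searched were chosen with earlier results of these data known. Named are members called in any comparison, fixed members of each role, and the 5 called genes with the largest change in each further list, of which 1 is not reported here. The fit was tested on simulated data. In the authors' values the set numbers of the Lamin B2 Kd columns did not match the arrays, so those columns were used without numbers.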

Additional observations from a re-analysis of the deposited data

Results flagged for a closer look

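The 2 knockdowns differed for 7 of the 41 genes by limma's test of the difference, where they differed for 3392 of all 21789 genes tested. Of these, 5 were lower in Lamin A/C Kd and 2 higher, where 4.47% and 11.1% of all genes tested were. The change upon Lamin A/C Kd minus that upon Lamin B2 Kd was -1.09 for MCM6, -0.76 for MCM4, -0.49 for CDC6, -0.42 for RRM1 and -0.40 for MCM10 on the log2 scale. It was 0.68 for CCNE1 and 0.49 for RPA2. In each of these genes the 3 arrays of either knockdown did not overlap those of the other. The genes were picked by that same difference, so the lack of overlap adds no support.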

How the results depend on the processing

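The calls among the 41 genes, 11 for Lamin A/C Kd, 3 for Lamin B2 Kd and 7 between the knockdowns, moved with the processing. In that order they were 18, 2 and 15 with the 75th percentile shift, 16, 2 and 13 with quantile normalization, and 27, 14 and 11 with normexp background correction. A shift by the median of probes detected on all 9 arrays, chosen after seeing the data, gave 17, 2 and 13. They were 6, 0 and 5 without a detection filter, 27, 4 and 11 when the slide was a block, 27, 0 and 3 with only the groups compared in the fit, 28, 7 and 10 with array weights, 8, 0 and 5 with the authors' values, and 1, 0 and 1 with the methods' 2-fold threshold. Replicate numbers did not pair the samples (correlations of same-numbered arrays from -0.07 to 0.07), and a replicate block gave 3, 0 and 3. Leaving out 1 array gave 2 to 27, 0 to 5 and 3 to 11. As reported, none of the Lamin A/C Kd calls was higher than control. With the 75th percentile shift 1 was, with quantile normalization 2 and with the added shift 1. The median change of the 41 genes in Lamin A/C Kd was -0.34 with the 75th percentile shift, -0.32 with quantile normalization, -0.50 with normexp and -0.35 with the added shift, and -0.47 to -0.38 with 1 array left out. In Lamin B2 Kd it was -0.0890 with the 75th percentile shift, where the median of all genes tested moved from -0.14 to 0.05, and -0.0872 with quantile normalization, and -0.36 to -0.16 with 1 array left out. No called gene changed direction under any of these alternatives. Calls over all genes moved too. In the same order of comparisons they were 1869, 1056 and 3392 as reported, 3281, 1097 and 4793 with the 75th percentile shift, 3052, 1040 and 4764 with quantile normalization, 3565, 2514 and 3847 with normexp, 3158, 1130 and 4644 with the added shift, 929, 271 and 2260 without a filter, 4470, 1110 and 4160 with the slide block, 4259, 116 and 1642 with only the groups compared, 5181, 1770 and 4041 with array weights, 831, 215 and 1912 with the authors' values, 481, 450 and 913 with the 2-fold threshold, and 872, 224 and 2273 with the replicate block. The causes were not tested.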
